A study of Homo sapiens with 9 samples.

Results

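The proteasome subunit genes were taken as the protein-coding rows of the count matrix whose symbol runs from PSMA to PSMG and ends in a subunit number. This rule, which uses names and no measured value, gave 48 of the 58735 genes. Of these, 46 passed the filter on low counts in each comparison, and PSMA8 and PSMB11 did not. The data came from A549, an established lung cancer cell line, transfected with jetPRIME and 1 of 3 plasmids. The control libraries (PC3) carried the control plasmid, the LINC00996 libraries (L996) a plasmid for overexpression of the long non-coding RNA LINC00996, and the AP001189.3 libraries (RP11) one for the long non-coding RNA AP001189.3, with 3 libraries in each group. The time after transfection and the promoter on the plasmids are not given in the sources used here. The controls are labelled for treatment as PC3.1, PC3.2 and PC3.3 in turn, which was read as 3 replicates of 1 control. RNA extraction in triplicate is described for the control and LINC00996 cells, and general text on the statistics speaks of biological replicates, in a number that differs from the libraries here, but whether the libraries of a group came from separate cultures is not stated, so the p-values measure the spread between these samples, which may be technical. The comparisons ask how the proteasome genes stood in cells that overexpressed each RNA.

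The proteasome is the barrel-shaped protease that degrades ubiquitin-tagged proteins. Its 20S core has outer alpha rings and inner beta rings, and the proteolytic sites lie on the beta subunits PSMB5, PSMB6 and PSMB7. Interferon-gamma is known to induce replacements for these, PSMB8 for PSMB5, PSMB9 for PSMB6 and PSMB10 for PSMB7. A core built with them is called the immunoproteasome. Interferon-gamma also induces PSME1 and PSME2, the subunits of the PA28 activator, which caps the core. Peptides cut by the proteasome are carried into the endoplasmic reticulum by TAP1 and TAP2 and loaded onto MHC class I molecules. The 19S cap, made of PSMC ATPases and PSMD subunits, unfolds the substrates.

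Each overexpressed RNA was found in the libraries labelled for it. LINC00996 stood at 287, 277 and 322 CPM in its own libraries, where CPM is the count relative to the TMM-scaled library size, against 0.230 to 0.529 CPM in the other 6 libraries. AP001189.3 stood at 98.1, 126 and 144 CPM in its libraries and at no more than 0.125 CPM in the others. Counts summed to between 15272450 and 18125447 per library. LINC00996 replicate 1 stood apart from its group. Spearman's rho between GC content and a gene's deviation from its mean over the libraries was 0.444 across 16552 genes in that library, and -0.257 and -0.444 in the other LINC00996 libraries. It was 0.370, 0.231 and 0.211 in the AP001189.3 libraries and -0.0087, -0.257 and -0.296 in the control libraries, with no overlap between these groups. Epithelial markers summed to between 6725 and 9096 CPM, but 2 of the 5, CDH1 (-0.89 on the log2 scale) and KRT19 (-0.40), were lower with LINC00996 than in control (adjusted p = 2.9e-05 and 0.026, edgeR's quasi-likelihood test). EPCAM, KRT8 and KRT18 had 0.28, 0.30 and 0.09 with LINC00996 and missed the threshold, with all LINC00996 libraries above control, and KRT8 was higher with AP001189.3 (0.19, adjusted p = 0.0026). The part of these markers in the results was not tested. Of the leukocyte markers, CD14 stood at 7.51 to 13.9 CPM over all libraries, and PTPRC, CD3E and LYZ stood at or near 0. Markers of endothelium and fibroblasts summed to 27.9 to 31.4 CPM in the control libraries, 15.2 to 17.7 CPM with LINC00996 and 22.4 to 26.1 CPM with AP001189.3, and their part in the results was not tested. PECAM1 and COL1A1 made up nearly all of these sums. Both were lower with LINC00996 than in control (-1.42 and -0.62, adjusted p = 0.00028 and 0.0063, same test). With AP001189.3, 1 of these 2 genes was called lower. In bulk RNA, fewer cells that express a gene and less of its RNA per cell cannot be told apart.

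Several of the genes share sequence with their surroundings, which bears on how reads were counted. On GRCh38, PSMB8 lies at chr6:32840717-32844703 on the minus strand and PSMB9 begins inside it on the plus strand at chr6:32844136-32859585. The RefSeq starts of TAP1, on the minus strand, lie within this span of PSMB9. Of the exon bases of PSMB8, 20.6% are shared with PSMB9 or with the antisense RNA PSMB8-AS1. For PSMB9 the share was 5.66%. PSMB10 lies at chr16:67934502-67937087 on the minus strand, where 34.8% of its exon bases are shared with AC040162.1. PSME1, at chr14:24136158-24138967, and PSME2, at chr14:24143362-24147570, are neighbours on opposite strands, and PSME2 shares 8.18% of its exon bases, chiefly with RNF31. Among all 48 genes, 23 share exon bases with another gene and 12 have pseudogene copies. The strand setting of the counting is not given in the sources used here, so the split of reads between such genes is uncertain.

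The 250 bases before the RefSeq starts were searched on both strands for GAAA followed by any 2 bases and GAAA again, a core of the element that interferon regulatory factors bind. Starts were found for 42 of the 48 genes, with 51 windows in all (GRCh38.p14). The motif was in 5 of these windows (9.80%), which belong to PSMA4, PSMB4, PSMB10, PSME2 and PSMG4, against 3.02% of all 35116 windows. Each match lies before the RefSeq start of its gene, and all windows with a match save that of PSMA4 overlap annotated exons of other transcripts. The stretches are shown with the motif in capitals, 5′ to 3′ on the strand of each gene, because PSMB10 and PSME2 are among the immunoproteasome genes and the other 3 are not. TAP1, whose starts lie within the span of PSMB9, is added for comparison.

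PSMB10, chr16:67936852-67936881, minus strand: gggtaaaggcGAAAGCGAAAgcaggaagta
PSME2, chr14:24146619-24146648, minus strand: cctggggagtGAAAGCGAAAgcccgggcga
PSMG4, chr6:3258904-3258933, plus strand: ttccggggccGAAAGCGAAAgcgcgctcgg
PSMB4, chr1:151399495-151399524, plus strand: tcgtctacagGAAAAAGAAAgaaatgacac
PSMA4, chr15:78540155-78540184, plus strand: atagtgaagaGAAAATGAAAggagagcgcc
TAP1, chr6:32853816-32853845, minus strand: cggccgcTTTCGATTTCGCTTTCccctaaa

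In PSMB10 the match began 21 bases before the start and in PSME2 28 bases before it. TAP1 held 2 overlapping matches on the opposite strand. The windows of PSMB8, PSMB9, PSME1 and PSMB5 held no match to these letters. No start was found for PSMB6 or PSMB7, so their windows were not searched. The STAT-type motif TTCNNNGAA was in 7 of the 51 windows against 6.57% of all windows, the NFE2L1-type motif TGACNNNGC in 13 against 10.9%, and CCAAT in 19 against 32.0%. These matches describe the sequence and are not evidence of binding.

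With AP001189.3, the 3 catalytic subunits of the immunoproteasome rose, by 0.42 to 1.51 on the log2 scale, while the constitutive subunits they replace differed from control by 0.10 to 0.20. Of all genes tested, 11.4% were called higher in this comparison and 18.5% were higher without overlap. PSMB10 stood at 11.9, 11.1 and 11.1 CPM in the control libraries and at 34.3, 32.3 and 31.0 CPM with AP001189.3. The groups did not overlap, and every AP001189.3 library was far above the highest control library. The fold was 2.85, with a log2 fold change of 1.51 ± 0.10 (SE) and an adjusted p of 2.8e-11 (edgeR's quasi-likelihood test, Benjamini-Hochberg adjusted over the 16023 genes tested). AC040162.1, which shares its exon bases, stood at 1.09 to 2.54 CPM over all libraries. PSMB9 stood at 75.8, 69.6 and 75.7 CPM in control and at 127, 130 and 114 CPM with AP001189.3, again with no overlap. Its log2 fold change was 0.75 ± 0.06 (adjusted p = 2.8e-09, same test). PSMB8 rose from 78.1, 85.1 and 92.1 CPM to 115, 113 and 114 CPM, a log2 fold change of 0.42 ± 0.06 (adjusted p = 1.5e-05, same test). Here too the lowest AP001189.3 library was above the highest control library. All 3 calls were kept in each of the 14 alternative fits, with log2 fold changes of 1.34 to 1.55 for PSMB10, 0.68 to 0.80 for PSMB9 and 0.34 to 0.48 for PSMB8. With the GC content offset, chosen after seeing the data, they were 1.34, 0.76 and 0.34. An added log2 fold threshold of 1, which is not among the 14, keeps PSMB10 only. PSMB8-AS1, whose reads on shared exon bases cannot be separated from those of PSMB8 without strand, stood at 4.03 to 4.06 CPM in control and 5.46 to 5.94 CPM with AP001189.3, with a log2 fold change of 0.48 that missed the threshold (adjusted p = 0.051).

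The PA28 subunits went in opposite directions with AP001189.3. PSME2 stood at 205, 212 and 226 CPM in control and at 254, 279 and 270 CPM with AP001189.3, without overlap, and rose by a log2 fold change of 0.32 ± 0.05 (edgeR's quasi-likelihood test, adjusted p = 8.7e-05). PSME1 stood at 284, 316 and 343 CPM in control and at 279, 273 and 272 CPM with AP001189.3. The groups did not overlap, although control replicate 1 was within a few CPM of the highest AP001189.3 library. PSME1 fell by 0.19 on the log2 scale (SE 0.06, adjusted p = 0.016, same test). This fall passed the threshold in 9 of the 14 alternatives and was lost without control replicate 2, control replicate 3, AP001189.3 replicate 2 or AP001189.3 replicate 3 (adjusted p = 0.080, 0.092, 0.077 and 0.072), where it ranged from 0.13 to 0.19. With all 9 libraries in 1 fit, PSME2 had an adjusted p of 0.059 and PSME1 of 0.25. The gene length offset gave -0.29 for PSME1 (adjusted p = 0.0016).

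Of the constitutive catalytic subunits, PSMB5 and PSMB7 rose a little with AP001189.3 and PSMB6 did not pass the test. PSMB5, which carries the chymotrypsin-like site, stood at 68.6, 70.8 and 76.9 CPM in control and at 81.9, 82.4 and 84.2 CPM with AP001189.3 (log2 fold change 0.20 ± 0.06, adjusted p = 0.021, edgeR's quasi-likelihood test). PSMB7, with the trypsin-like site, stood at 118, 114 and 121 CPM and at 129, 134 and 137 CPM (0.18 ± 0.05, adjusted p = 0.018). Neither gene overlapped between the groups. PSMB6, with the caspase-like site, stood at 83.3, 86.0 and 101 CPM and at 96.7, 101 and 91.3 CPM, and these ranges overlapped (0.10 ± 0.07, 95% interval -0.04 to 0.23, adjusted p = 0.34). The calls of PSMB5 and PSMB7 passed in 7 and 9 of the 14 alternatives. Both were lost without control replicate 2, AP001189.3 replicate 2 or AP001189.3 replicate 3, and that of PSMB5 also without control replicate 1, at log2 fold changes of 0.16 to 0.20 and adjusted p of 0.068 to 0.11. Both were also lost with all 9 libraries in 1 fit (adjusted p = 0.39 and 0.18) and with the gene length offset (0.10 and 0.08, adjusted p = 0.29 and 0.31), and that of PSMB5 with the GC content offset (0.14, adjusted p = 0.11).

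**Figure D1:**
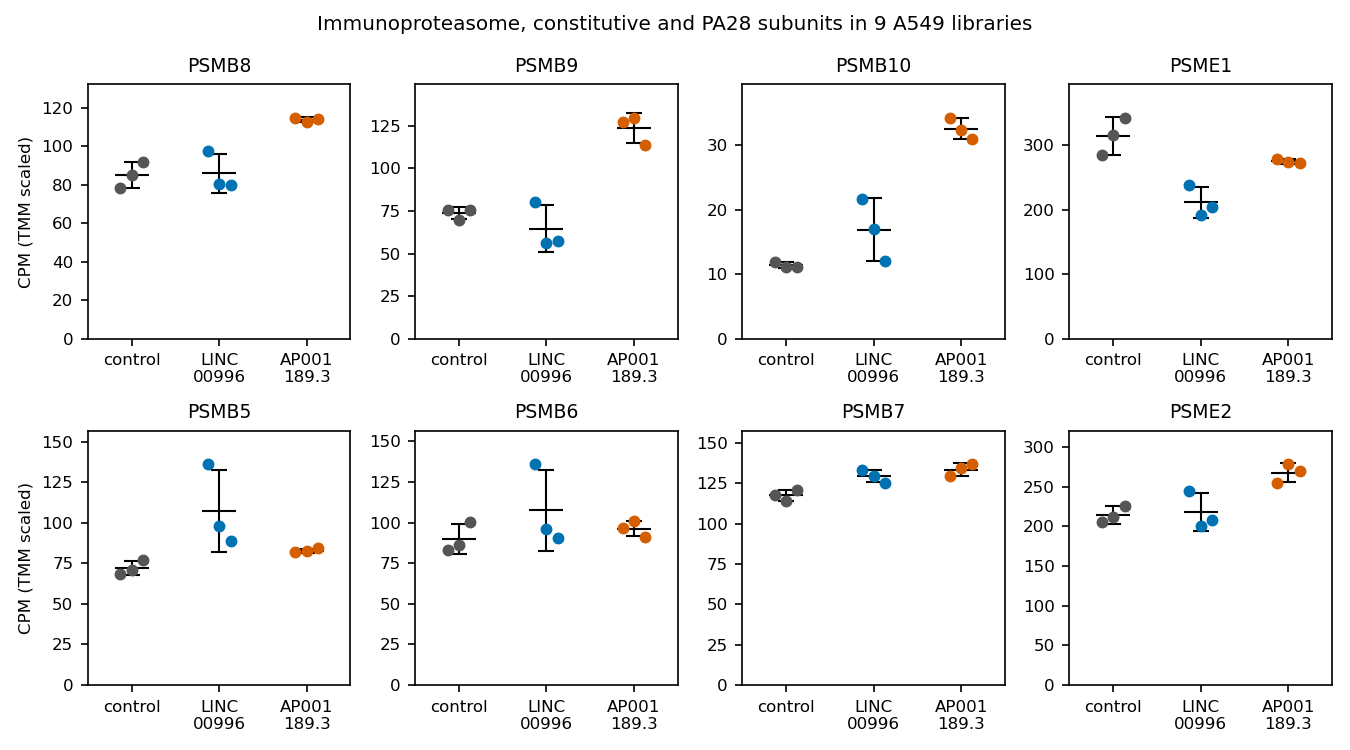
CPM (TMM scaled, axis from 0) of 8 proteasome genes in each of the 9 libraries, with points for libraries and black bars for the mean ± SD of 3. PSMB8, PSMB9, PSMB10 and PSME2 lay above every control library with AP001189.3, whereas PSME1 lay lowest with LINC00996.

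With LINC00996, 1 of the 5 immunoproteasome genes was called lower and 0 higher, against 11.6% and 10.7% of all genes tested. PSME1 fell, from 284, 316 and 343 CPM in control to 239, 192 and 204 CPM. All 3 LINC00996 libraries were below the lowest control library. The log2 fold change was -0.57 ± 0.11 (edgeR's quasi-likelihood test over 16097 genes, adjusted p = 0.0026), and the call was kept in all 14 alternatives, at -0.67 to -0.51. PSME2, its partner in PA28, stood at 245, 200 and 208 CPM, with a log2 fold change of 0.02 (95% interval -0.19 to 0.24, adjusted p = 0.90).

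None of the catalytic immunoproteasome subunits passed the test with LINC00996, where 22.3% of all genes tested passed. PSMB8 stood at 97.8, 80.5 and 80.1 CPM, overlapping control (log2 fold change 0.02, 95% interval -0.22 to 0.26, adjusted p = 0.93 by edgeR's quasi-likelihood test). PSMB9 stood at 80.4, 55.9 and 57.5 CPM, with replicate 1 above all control libraries and the other replicates below them (-0.19, interval -0.48 to 0.10, adjusted p = 0.34). PSMB10 stood at 21.7, 17 and 11.95 CPM, above the control libraries by only a little in replicate 3 (0.57, interval 0.15 to 0.98, adjusted p = 0.051). Replicate 1 gave the highest LINC00996 value for each of these genes. Without it, PSMB9 passed the threshold as lower (-0.38, adjusted p = 0.00024), while PSMB10 had a log2 fold change of 0.34 (adjusted p = 0.075). PSMB10 passed as higher in 8 of the 14 alternatives, DESeq2 among them (0.56, adjusted p = 0.027).

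Among the constitutive catalytic subunits, PSMB5 rose with LINC00996. It stood at 136, 97.8 and 88.5 CPM, all above the highest control library, and the log2 fold change was 0.58 ± 0.14 (edgeR's quasi-likelihood test, adjusted p = 0.014). The value without replicate 1, which was highest, was 0.37 (adjusted p = 0.00023), while the call was lost without control replicate 1 (0.54, adjusted p = 0.071) or control replicate 2 (0.56, adjusted p = 0.064). PSMB6 stood at 136, 96.0 and 90.6 CPM (0.26 ± 0.15, adjusted p = 0.24, and 0.05 without replicate 1) and PSMB7 at 133, 130 and 126 CPM (0.14 ± 0.09, adjusted p = 0.29). PSMB6 overlapped control, whereas every LINC00996 library was above every control library for PSMB7.

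When the LINC00996 and AP001189.3 libraries were compared directly, all 5 immunoproteasome genes were lower with LINC00996, against 12.1% of all genes called lower and 19.7% lower without overlap. PSMB10 differed by -0.95 ± 0.18 on the log2 scale and PSMB9 by -0.94 ± 0.13 (adjusted p = 0.0027 and 0.00048, edgeR's quasi-likelihood test over 16095 genes). PSMB8 differed by -0.41 ± 0.10, PSME1 by -0.38 ± 0.09 and PSME2 by -0.30 ± 0.09 (adjusted p = 0.012, 0.012 and 0.040, same test). No LINC00996 library reached the lowest AP001189.3 library for any of the 5. The calls of PSMB9 and PSMB10 were kept in all 14 alternatives, whereas those of PSMB8, PSME1 and PSME2 were kept in 10, 10 and 8. Those of PSMB8 and PSME1 were lost without any 1 of the AP001189.3 libraries or LINC00996 replicate 2, where adjusted p ran from 0.060 to 0.071 for PSMB8 and from 0.060 to 0.079 for PSME1. That of PSME2 was lost with library size alone (adjusted p = 0.085) and without each library in turn save LINC00996 replicate 1 (adjusted p = 0.087 to 0.18). PSMB5, PSMB6 and PSMB7 did not pass the test in this comparison (log2 fold changes 0.37, 0.15 and -0.05).

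The balance of the catalytic subunits was described as the mean log2 CPM of PSMB8, PSMB9 and PSMB10 minus that of PSMB5, PSMB6 and PSMB7 in each library, with no test. It was -1.08, -1.13 and -1.20 in control, -1.28, -1.33 and -1.40 with LINC00996 and -0.34, -0.41 and -0.46 with AP001189.3. The 3 groups did not overlap, and the AP001189.3 libraries were highest. Exon length enters these values, so their 0 does not mark equal levels. Per kb of exon length, the same ratio on a linear scale had a geometric mean of 0.293 in control, 0.255 with LINC00996 and 0.486 with AP001189.3. The group means differed by 0.73 between AP001189.3 and control and by -0.20 between LINC00996 and control. The difference with AP001189.3 was 0.56 when medians of the 3 genes replaced means, so PSMB10 carried part of it. For single pairs, PSMB9 to PSMB6 was -0.28 ± 0.14 (SD, n = 3) in control, -0.73 ± 0.07 with LINC00996 and 0.36 ± 0.04 with AP001189.3. The PSMB10 to PSMB7 value was -3.37 ± 0.07, -2.98 ± 0.39 and -2.04 ± 0.11, and that of PSMB8 to PSMB5 was 0.24 ± 0.04, -0.30 ± 0.17 and 0.46 ± 0.03. For PSMB8 to PSMB5 the fall with LINC00996 came with a rise of PSMB5, since PSMB8 itself hardly differed from control. Within PA28, PSME1 to PSME2 was 0.55 ± 0.07 in control, -0.04 ± 0.01 with LINC00996 and 0.04 ± 0.08 with AP001189.3. It was thus below control with each RNA, with a fall of PSME1 in the first case and a fall of PSME1 with a rise of PSME2 in the second.

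**Figure D2:**
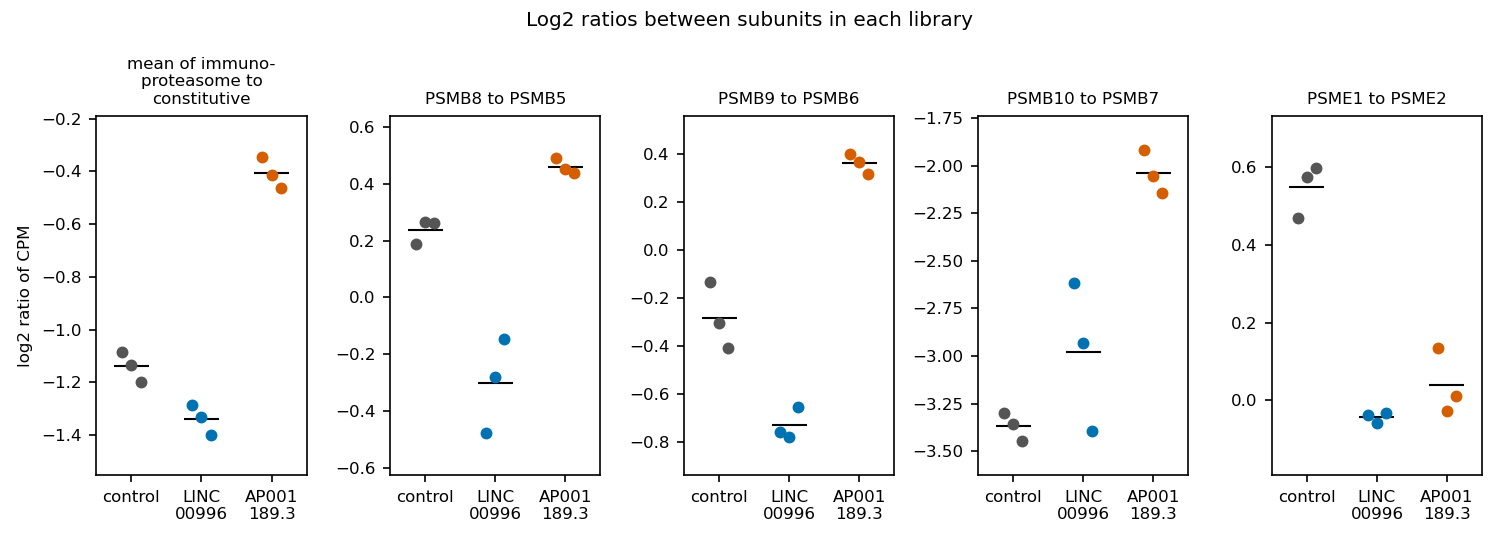
Log2 ratio of CPM between subunits in each library, with black lines for group means of 3 libraries and a separate scale in each panel. The ratio of immunoproteasome to constitutive catalytic subunits ran from -0.46 to -0.34 with AP001189.3, against -1.20 to -1.08 in control and -1.40 to -1.28 with LINC00996.

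Levels of different genes were compared as mean CPM per kb of exon length. In control, PSME1 had the highest level of all proteasome subunits at 177 CPM per kb, followed by PSMC4 at 105, PSMB3 at 96.1 and PSMA7 at 86.8 CPM per kb. PSMB7, PSMB6 and PSMB5 stood at 65.9, 62.1 and 40.9 CPM per kb, and PSMB8, PSMB9 and PSMB10 at 28.4, 24.0 and 6.15 CPM per kb. On this scale each immunoproteasome subunit was below the constitutive one that it replaces. With AP001189.3 the order in each pair was unchanged, at 38 CPM per kb for PSMB8 against 46.9 for PSMB5, 40.2 for PSMB9 against 66.5 for PSMB6 and 17.6 for PSMB10 against 74.8 for PSMB7. For PSMB8 and PSMB9 the order depended on the exon length. In mean CPM, PSMB8 was above PSMB5 in control (85.1 against 72.1) and with AP001189.3 (114 against 82.8). PSMB9 was above PSMB6 with AP001189.3 (124 against 96.3) but below it in control (73.7 against 90.0). PSMB10 was below PSMB7 in mean CPM in both groups. PSMA2 and PSMA6, alpha ring subunits with pseudogene copies, stood at 1.14 and 1.00 CPM per kb in control, against 7.36 to 86.8 CPM per kb for the other alpha ring genes that passed the filter. PSMA8, a testis subunit, had no count in any library, and PSMB11, the thymus subunit, stood at 0.162 CPM in 1 LINC00996 library and at 0 in the others.

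Across the whole family, 16 of the 46 genes passed the test with AP001189.3, against 19.8% of all genes tested. Of these, 11 were higher and 5 lower (backgrounds 11.4% and 8.49%), and the median log2 fold change was 0.01, against -0.0013 for all genes tested. The count rests partly on single libraries and on the fit, since it was 10 without control replicate 2, AP001189.3 replicate 2 or AP001189.3 replicate 3, and 4 with all 9 libraries in 1 fit. Those 4 were PSMB8, PSMB9, PSMB10 and PSMF1. In the full count, 4 of the 11 that rose were immunoproteasome genes. Groups did not overlap for 20 of the 46 genes, 13 higher and 7 lower, against 35.2% of all genes tested (18.5% higher and 16.7% lower). When calls were held to a log2 fold change of 1 or more in size, 1 gene remained, PSMB10, against 0.986% of all genes.

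With LINC00996, 9 of 46 passed the test, 8 higher and 1 lower, against 22.3% of all genes (10.7% higher and 11.6% lower). The median log2 fold change was 0.12, against 0.01 for all genes. These counts depended strongly on single libraries. Without control replicates 1, 2 or 3 they fell to 3, 2 and 5 genes, and without LINC00996 replicate 1 they rose to 18, 14 higher and 4 lower. The GC content offset gave 17 genes, 15 higher and 2 lower. Groups did not overlap for 20 of 46 genes, 17 higher and 3 lower, against 40.4% of all genes (19.8% higher and 20.7% lower). Held to a log2 size of 1 or more, 0 of 46 were called, against 4.72% of all genes. Between LINC00996 and AP001189.3, 8 of 46 passed, 2 higher and 6 lower, against 21.4% of all genes (9.38% and 12.1%). This count was 27 without LINC00996 replicate 1, with 19 higher, 4 without LINC00996 replicate 2, AP001189.3 replicate 1 or AP001189.3 replicate 3, and 3 without AP001189.3 replicate 2. With library size as the only scaling it was 14, 9 of them higher. Groups did not overlap for 27 of 46 genes, 21 higher and 6 lower, against 39.2% of all genes (19.5% higher and 19.7% lower), and 0 of 46 were called at a log2 size of 1 or more, against 4.14%.

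**Figure D3:**
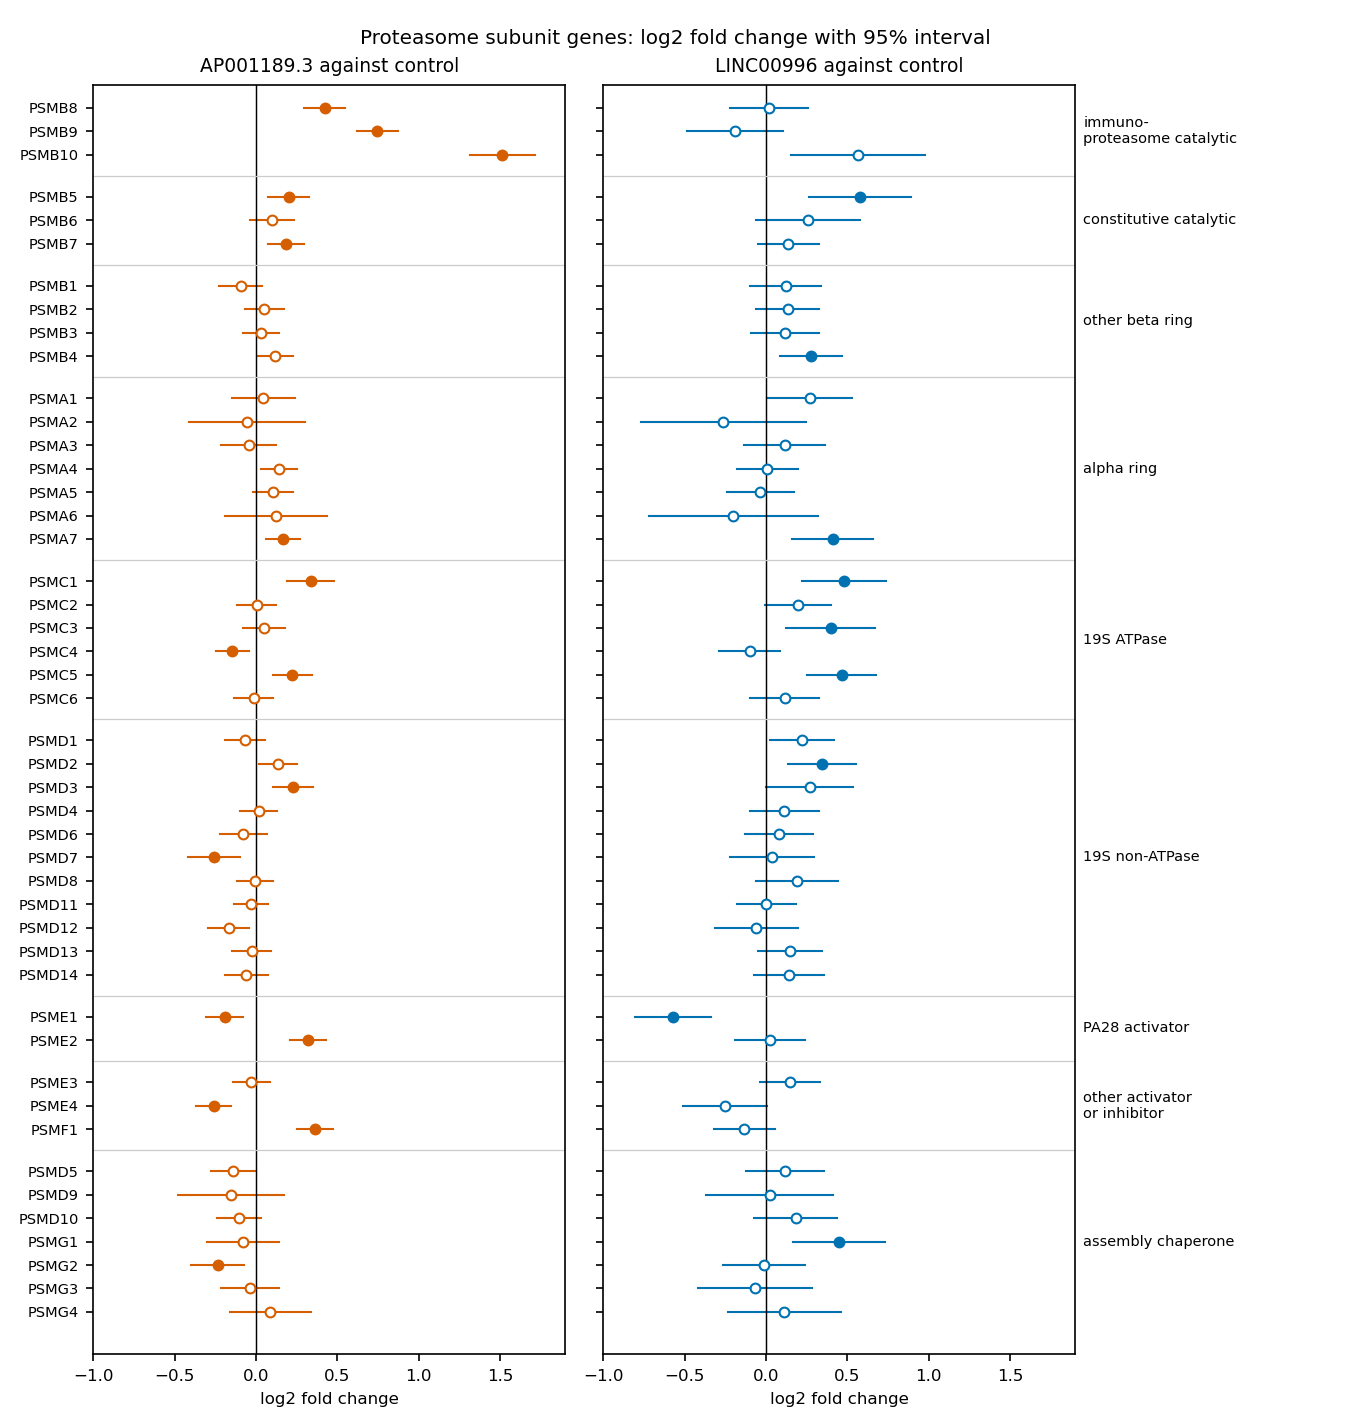
Log2 fold change with its 95% interval for each of the 46 tested genes, by role, with AP001189.3 (left) and LINC00996 (right) against the same control libraries. Filled points had an adjusted p under 0.05, and the points of PSMB8, PSMB9 and PSMB10 lay furthest right in the left panel together with PSMF1.

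In the rest of the 20S core, few genes passed the test. PSMA7, an alpha ring subunit, was at 147, 152 and 157 CPM in control, 241, 184 and 180 CPM with LINC00996 and 167, 170.5 and 174 CPM with AP001189.3, and both groups lay wholly above control. It rose by a log2 fold change of 0.41 ± 0.11 with LINC00996 and 0.17 ± 0.05 with AP001189.3 (adjusted p = 0.024 and 0.023, edgeR's quasi-likelihood test), the latter in 6 of the 14 alternatives. The rise with LINC00996 was 0.26 without LINC00996 replicate 1 (adjusted p = 0.0012). It was lost without any 1 control library (adjusted p = 0.073 to 0.11), and that with AP001189.3 without control replicates 1 or 2 or AP001189.3 replicates 2 or 3 (adjusted p = 0.063 to 0.11). The latter was lost as well with library size alone (0.14, adjusted p = 0.054), all 9 libraries in 1 fit (adjusted p = 0.37), the gene length offset (0.07, adjusted p = 0.42) and the GC content offset (0.06, adjusted p = 0.49). PSMA1 and PSMA2, the alpha ring genes next by adjusted p with LINC00996, had values of 0.27 (adjusted p = 0.13) and -0.26 (adjusted p = 0.46). In the beta ring, PSMB4 was at 133, 133 and 137 CPM in control and at 171, 164 and 153 CPM with LINC00996 (0.27 ± 0.09, adjusted p = 0.042), without overlap. This was lost without any 1 control library or LINC00996 replicate 2 (adjusted p = 0.11 to 0.18), with no filter on low counts (adjusted p = 0.088) and with the gene length offset (0.21, adjusted p = 0.084). PSMB2 and PSMB3 differed by 0.13 and 0.12 (adjusted p = 0.32 and 0.42). In the alpha and remaining beta rings, 2 of 11 tested genes were higher with LINC00996 and 1 of 11 with AP001189.3, near the shares of all genes (10.7% and 11.4%).

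Among the 19S ATPases, which drive substrate unfolding, PSMC1, PSMC3 and PSMC5 rose with LINC00996. PSMC5 stood at 74.9, 78.7 and 75.3 CPM in control, at 116, 100 and 100 CPM with LINC00996 and at 88.9, 89.6 and 88.9 CPM with AP001189.3. Neither group overlapped control, and the rises were 0.47 ± 0.10 and 0.22 ± 0.06 (adjusted p = 0.0052 and 0.0068, edgeR's quasi-likelihood test). That with LINC00996 was kept in all 14 alternatives, but 19.5% of the exon bases of PSMC5 are shared with FTSJ3. PSMC3 stood at 69.6, 71.8 and 79.1 CPM in control and at 117, 86.8 and 87.1 CPM with LINC00996 (0.40 ± 0.13, adjusted p = 0.039), with no overlap, and lost its call without any 1 control library (0.35 to 0.45, adjusted p = 0.077 to 0.15). Without LINC00996 replicate 1 the value was 0.24 (adjusted p = 0.010). PSMC1 rose by 0.48 ± 0.12 and 0.33 ± 0.07 with LINC00996 and AP001189.3 (adjusted p = 0.013 and 0.0012), but 75.8% of its exon bases are shared with NRDE2 and it has 13 pseudogene copies. The call with LINC00996 was lost without control replicate 2 (adjusted p = 0.073) or 3 (adjusted p = 0.054). PSMC4 fell with AP001189.3 by 0.15 (adjusted p = 0.035), a call lost without control replicate 2 or any 1 AP001189.3 library (adjusted p = 0.080 to 0.15), with no filter on low counts (adjusted p = 0.056) and with all 9 libraries in 1 fit (adjusted p = 0.28). That fit also lost the calls of PSMC1, PSMC5, PSMD3, PSMD7, PSME4 and PSMG2 with AP001189.3 (adjusted p = 0.091 to 0.25). Of the 19S non-ATPase subunits, PSMD2, a scaffold of the cap, stood at 170, 170 and 193 CPM in control and at 246, 215 and 216 CPM with LINC00996, and rose by 0.34 ± 0.10 (adjusted p = 0.023). Without control replicates 1 or 2 the value was 0.31 (adjusted p = 0.12 and 0.13). PSMD3 was higher with AP001189.3 (0.23 ± 0.06, adjusted p = 0.0068), and PSMD7 was lower (-0.26 ± 0.08, adjusted p = 0.019), the latter lost without AP001189.3 replicate 1 or control replicate 3 (-0.19 and -0.17, adjusted p = 0.12 each). Of the exon bases of PSMD7, 30.7% are shared with AC009120.2. PSMD1 was higher with LINC00996 than with AP001189.3 (0.28 ± 0.09, adjusted p = 0.042), a call lost without each library in turn save LINC00996 replicate 1 (adjusted p = 0.091 to 0.18) and with no filter on low counts (adjusted p = 0.071).

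Among the remaining regulators and chaperones, PSMF1 had the clearest change, with AP001189.3. PSMF1, a protein that inhibits the 20S core, stood at 163, 159 and 150 CPM in control, 142, 142 and 146 CPM with LINC00996 and 195, 211 and 201 CPM with AP001189.3. The AP001189.3 libraries were above all others. PSMF1 rose with AP001189.3 by 0.36 ± 0.05 (adjusted p = 1.8e-05) and was lower with LINC00996 than with AP001189.3 by 0.50 (adjusted p = 0.0012), by edgeR's quasi-likelihood test. Both calls were kept in all 14 alternatives. Against control, LINC00996 gave -0.13 (adjusted p = 0.29). PSME4, the PA200 activator, fell with AP001189.3 (-0.26 ± 0.05, adjusted p = 0.00083), while PSME3, the nuclear PA28 gamma subunit, had -0.03 with AP001189.3 and 0.15 with LINC00996 (adjusted p = 0.77 and 0.23). PSMG1, an assembly chaperone, stood at 18, 15.7 and 20.2 CPM in control and at 23.1, 24.2 and 26.3 CPM with LINC00996 (0.45 ± 0.13, adjusted p = 0.028) and at 17.8, 16.1 and 17.3 CPM with AP001189.3. Its LINC00996 libraries were above all others, but the call was lost without control replicates 1 or 2 or LINC00996 replicates 2 or 3 (0.36 to 0.46, adjusted p = 0.068 to 0.16) and with the gene length offset (0.40, adjusted p = 0.056). PSMG1 was also higher with LINC00996 than with AP001189.3 (0.52 ± 0.11, adjusted p = 0.0075), a call lost only without AP001189.3 replicate 2 (0.49, adjusted p = 0.052) among the 14 alternatives. PSMG2 fell with AP001189.3 (-0.24 ± 0.08, adjusted p = 0.036) but not without each library in turn save control replicate 1 (adjusted p = 0.063 to 0.13), and PSMD5 and PSMD10, chaperones of the 19S base, had 0.12 and 0.18 with LINC00996 (adjusted p = 0.49 and 0.29).

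The proteasome genes outside the PSM names were also counted. Of 18 such genes (among them assembly factors, shuttle proteins, regulators of proteasome genes and the 19S subunit SEM1), 1 was higher and 1 lower with LINC00996 (all genes 10.7% and 11.6%), and 3 were higher and 1 lower with AP001189.3 (all genes 11.4% and 8.49%). Over the 14 alternative fits there were 1 or 2 higher and 0 to 4 lower with LINC00996, with 4 lower without LINC00996 replicate 1 or with the GC content offset and 0 lower without any 1 control library, LINC00996 replicate 2 or with library size alone. With AP001189.3 there were 1 to 3 higher and 0 to 2 lower. SEM1, a small 19S subunit, stood at 26.4, 23.6 and 18.3 CPM in control, 56.9, 49.1 and 43.9 CPM with LINC00996 and 35.0, 41.6 and 33.1 CPM with AP001189.3, and rose by 1.13 ± 0.15 and 0.68 ± 0.12 (adjusted p = 0.00027 and 0.0007, edgeR's quasi-likelihood test). The GC content offset gave 1.23 for SEM1 with LINC00996 (adjusted p = 0.055). ZFAND5, which activates the 26S proteasome, fell with LINC00996 (-0.33 ± 0.10, adjusted p = 0.029), a call lost without any 1 control library or LINC00996 replicate 2 (adjusted p = 0.055 to 0.13) and with library size alone or the gene length offset (adjusted p = 0.054 and 0.053). AKIRIN2, which carries proteasomes into the nucleus, missed the threshold (-0.29, adjusted p = 0.055) but passed it as lower in 5 of the 14 alternatives.

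Most genes that take up and load the peptides were lower with LINC00996, and some were higher with AP001189.3. Of 10 genes of peptide supply to MHC class I, 7 were lower and 0 higher with LINC00996 (background 11.6% lower), and 4 were higher and 0 lower with AP001189.3 (background 11.4% higher). TAP1, a subunit of the peptide transporter, stood at 429, 427 and 466 CPM in control, 252, 207 and 225 CPM with LINC00996 and 572, 589 and 573 CPM with AP001189.3. All 3 groups were apart, with log2 fold changes of -0.95 ± 0.10 and 0.39 ± 0.05 against control (adjusted p = 3.9e-05 and 2.1e-06, edgeR's quasi-likelihood test). With the GC content offset the rise was 0.26 (adjusted p = 0.00059). B2M, the light chain of MHC class I, fell with LINC00996 (-1.11 ± 0.09, adjusted p = 1.1e-05) and had -0.04 with AP001189.3 (adjusted p = 0.63). NLRC5, the transactivator of MHC class I genes, fell with LINC00996 by 1.06 (adjusted p = 9e-06) and rose with AP001189.3 by 0.16 (adjusted p = 0.030). That rise was lost with library size alone (0.14, adjusted p = 0.068) and the GC content offset (0.02, adjusted p = 0.86), with all 9 libraries in 1 fit (adjusted p = 0.26), and without control replicates 2 or 3 or AP001189.3 replicates 2 or 3 (adjusted p = 0.059 to 0.22). Without single libraries the counts were 7 or 8 lower with LINC00996 and 2 to 4 higher with AP001189.3, and all 9 libraries in 1 fit left 1 higher with AP001189.3. When LINC00996 replicate 1 was left out, 1 gene was called higher with LINC00996. The median over the 10 genes with LINC00996 was -0.66, against 0.02 for the 5 immunoproteasome genes and 0.01 for all genes tested. In these libraries PSMB8, which lies beside TAP1, and PSMB9 did not pass the test with LINC00996, while TAP1 did.

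Of 10 regulators of the immunoproteasome genes, 7 were lower and 0 higher with LINC00996 (all genes 11.6% and 10.7%), and 4 were higher and 2 lower with AP001189.3 (all genes 11.4% and 8.49%). Under the alternatives there were 7 to 9 lower with LINC00996, and 2 to 4 higher and 0 to 2 lower with AP001189.3. IRF1, the interferon regulatory factor known to induce PSMB9 and TAP1, stood at 186, 177 and 196 CPM in control, 99.6, 89.9 and 89.2 CPM with LINC00996 and 276, 264 and 282 CPM with AP001189.3. The groups were apart, with log2 fold changes of -1.004 ± 0.09 and 0.56 ± 0.05 (adjusted p = 2.1e-05 and 2.5e-08, edgeR's quasi-likelihood test). IFNGR2, a chain of the interferon-gamma receptor, fell in both, by 0.96 with LINC00996 and 0.17 with AP001189.3 (adjusted p = 2.9e-05 and 0.042), the second with overlapping groups and an adjusted p of 0.056 by DESeq2, of 0.25 with all 9 libraries in 1 fit and of 0.092 to 0.19 without control replicates 1 or 2 or AP001189.3 replicates 2 or 3. RELA, a subunit of NF-kB, fell by 0.80 with LINC00996 and rose by 0.29 with AP001189.3 (adjusted p = 0.00019 and 0.002), the rise being lost with all 9 libraries in 1 fit (adjusted p = 0.089) and 0.16 with the GC content offset (adjusted p = 0.034). The comparisons with control share the same 3 control libraries.

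**Figure D4:**
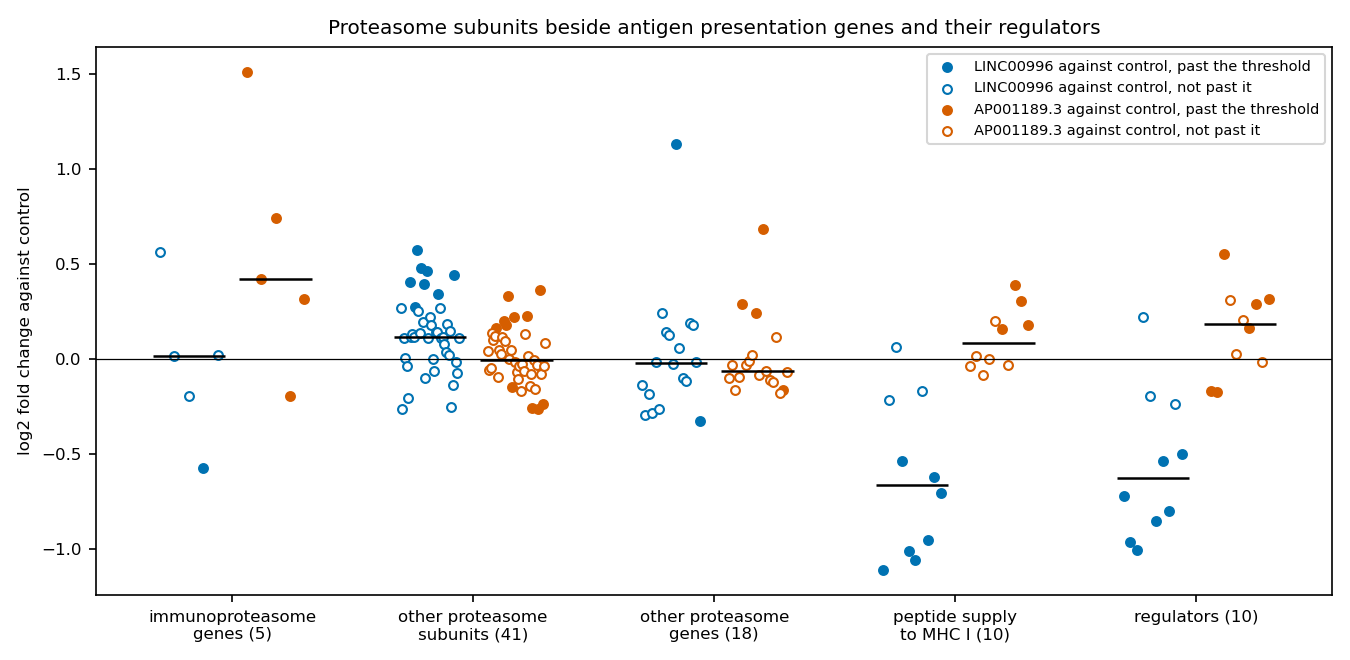
Log2 fold change against control for single genes of 5 lists, with filled points for an adjusted p under 0.05 and black lines for list medians. With LINC00996, the median was -0.66 for peptide supply and -0.63 for regulators, against 0.02 for the 5 immunoproteasome genes.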

How the data were processed

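The authors transfected A549, extracted RNA and, after alignment with HISAT2 2.0.5 and counting with featureCounts 1.5.0-p3 (the study's methods), deposited raw counts per gene, which are not normalized, and FPKM values per gene. The tools' versions also stand in the submitters' processing notes. The FPKM values deposited by the authors matched counts divided by length and library total within a factor of 0.961 to 1.02, and were used for this check only. Coordinates are those of GENCODE 29 (GRCh38), which held all 58735 genes of the matrix. All 9 columns of counts were used, and each of the 3 comparisons was tested on its 6 libraries with edgeR 4.0.16 in R 4.3.3 (filterByExpr, TMM, robust quasi-likelihood test, Benjamini-Hochberg adjustment over all genes, threshold 0.05). CPM values use TMM factors over all 9 libraries. Folds and their 95% intervals come from that fit.

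Alternatives tried were a single fit of all 9 libraries, DESeq2 1.42.0, scaling by library size only, no filter, a minimum of 10 counts per library, a replicate block, an offset for gene length (loess, span 0.75), leaving out each library and an added fold threshold of 1 on the log2 scale. An offset for GC content was added after seeing the data. Without the fold threshold, these make the 14 alternative fits of each comparison. The members and lists were chosen with earlier results of these data known. Values in every library are given for the catalytic and PA28 genes and, in each other class, up to 3 genes with the smallest adjusted p with LINC00996 were named, with other genes where a call is given. Within a group, libraries differed by a chi-square per gene of 2.26 to 33.67, so no column of counts was a copy of another. This measure cannot tell separate cultures from separate libraries of the same culture. RefSeq windows gave the promoter stretches. 1 leukocyte marker is not reported here.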

Additional observations from a re-analysis of the deposited data

How the results depend on the processing

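Numbers of proteasome subunit genes past the threshold moved by over 1.5 times under the following settings. With the GC content offset there were 17 for LINC00996 against control (15 higher, 2 lower) and 27 between LINC00996 and AP001189.3 (19 higher). All 9 libraries in 1 fit gave 4 for AP001189.3 against control (4 higher, 0 lower) and 6 higher between LINC00996 and AP001189.3. For the latter, library size alone gave 14 (9 higher) and the gene length offset 14 (8 higher). With the added fold threshold of 1 on the log2 scale, 1 gene remained for AP001189.3 (1 higher, 0 lower) and 0 in the other comparisons (0 higher, 0 lower). Leaving out each library gave 2 to 18 genes for LINC00996 (1 to 14 higher, 1 to 4 lower), 10 to 16 for AP001189.3 (8 to 13 higher, 2 to 7 lower) and 3 to 27 between them (0 to 19 higher, 3 to 8 lower). Fewer libraries enter those fits, and for the other settings the cause was not tested. With medians, the ratio of immunoproteasome to constitutive subunits was 0.56 higher than control with AP001189.3, and -1.10 between LINC00996 and AP001189.3. When each library was left out it ranged from 0.70 to 0.76, from -0.96 to -0.90 and, for LINC00996 against control, from -0.23 to -0.17.

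Some genes that had not passed the test changed sign. For LINC00996 against control, PSMB8 was -0.021 with the gene length offset and -0.084 to 0.073 without single libraries, and PSME2 was -0.070 to 0.082. PSMD7 was -0.010 with the gene length offset and -0.072 to 0.12 without single libraries, and PSMG2 was 0.024 with library size alone and -0.078 to 0.069 without single libraries. For AP001189.3 against control, the gene length offset gave -0.012 for PSMB6, -0.015 for PSMA1, -0.088 for PSMB3 and -0.036 for PSMC3, and the GC content offset 0.023 for PSMA2, -0.052 for PSMB3, -0.065 for PSMC3, 0.025 for ZFAND5 and 0.044 for B2M. Without single libraries, PSMA1 ranged from -0.045 to 0.13, PSMA2 from -0.19 to 0.13, PSMG1 from -0.17 to 0.013, PSME3 from -0.073 to 0.020 and AKIRIN2 from -0.071 to 0.00095. Between LINC00996 and AP001189.3, PSMB7 was 0.013 with library size alone, and PSME4 was -3.2e-05 with at least 10 counts in every library, -0.0093 with the replicate block and -0.034 with the GC content offset. There, leaving out single libraries gave -0.045 to 0.26 for PSMB6, -0.36 to 0.00082 for PSMA2, -0.11 to 0.11 for PSMD3 and -0.092 to 0.14 for PSME4.

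Deviations from the group means correlated over 0.1 in 3 of 9 pairs of same-numbered libraries (-0.0105 to 0.217). Pairs with different numbers from different groups ran from -0.192 to 0.083. The numbers were not taken to pair the libraries, and whether same-numbered libraries share a batch was not tested. Replicate 1 had the highest GC content correlation and the highest ratio of immunoproteasome to constitutive subunits in each group. With the replicate block, 10, 18 and 9 genes passed for LINC00996 and AP001189.3 against control and between them. PSMA8 and PSMB11 were too low to be tested at this depth.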
